A study of Zea mays with 6 samples.

Results

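Among the genes listed for mature maize anthers, 448 carry identifiers that begin with ENSRNA. The 155 of them at an FPKM of 1 or more (FPKM counts fragments per kilobase and corrects for library depth) in at least 3 of 6 libraries are described here, out of 31470 listed genes of all kinds. The other 293 lie below that level. The libraries were made from anthers of Zea mays line B104. Of these, 3 came from wild type and 3 from plants labelled ZmCOI2a-/-,ZmCOI2b-/-, a double mutant of COI genes. COI proteins are F-box receptors for jasmonate, a plant hormone. The series title ties both genes to anther dehiscence and to male fertility. The labels do not state how the alleles were made, how many plants were pooled or whether each library came from its own plants, so the p-values reflect only the variation among these 6 libraries, which may be technical.

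ENSRNA identifiers belong to structured noncoding RNA genes, most of which are annotated by their likeness to known RNA families. Such RNAs include ribosomal RNA, the small nuclear RNAs of the spliceosome, and the small nucleolar RNAs that guide chemical changes of ribosomal RNA and that in plants often lie in clusters along the genome. Most of these RNAs carry no poly(A) tail, and the labels do not say whether poly(A) RNA was selected or ribosomal RNA removed before sequencing, so levels here are those of the libraries and not of the cells. The files pair no locus with a name or a family. Of the maize genes that RefSeq lists on Zm-B73-REFERENCE-NAM-5.0, a newer assembly, 0 carry an ENSRNA identifier, so loci are given by span and by position on B73 RefGen_v4, and no family is assigned to any of them. For the same reason the genotypes and the tissue could not be checked on named transcripts.

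Depth was even, from 16845656 to 17759978 reads on genes per library. Every FPKM value of the ENSRNA loci corresponded to a whole number of reads over the full span, so reads are given beside FPKM. The level that defines the set asks for few reads at a short locus: an FPKM of 1 took 2 reads at 79 bases, 6 reads at 304 bases and 31 to 33 reads at 1811 bases. The 155 loci had a median of 85 reads summed over the 6 libraries, against 1386 for the 18829 other genes at the same FPKM level. Of the 155, 84 had at least 10 reads in at least 3 libraries, 43 had under 30 reads in all, and 29 were at 0 in at least 1 library. An FPKM of 1 or more was reached in all 6 libraries by 82 loci and in exactly 3 by 30. Among those 30, 2 passed only through the 3 wild-type libraries and 1 only through the 3 mutant libraries, and for these 3 loci, 1 of them among the called falls, a difference between genotypes is built into the choice.

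Spans ran from 79 to 1811 bases, with a median of 161 and quartiles of 104 and 304. The 293 loci below the level had nearly the same spans, with a median of 156, while the other tested genes had a median of 3621. Spans fell at a few repeated values: the 155 loci had 75 distinct spans, and 110 loci shared theirs with at least 1 other. The most frequent span was 304 bases, at 15 loci on 3 chromosomes. It was followed by 197 bases at 10 loci, 161 bases at 8, 103 bases at 7 and 1811 bases at 6.

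**Figure D1:**
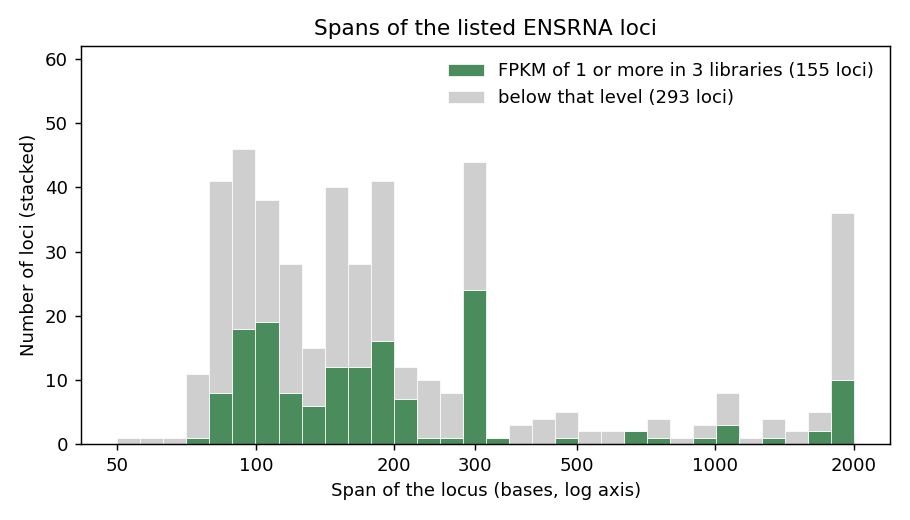
Number of listed ENSRNA loci by span in bases (log axis), stacked, with the 155 loci at FPKM 1 or more in 3 libraries in green and the 293 others in grey. Both sets peak near 100, between 150 and 200, at 304 and near 1811 bases.

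Some of these spans are also those of RefSeq noncoding genes of known type, which is a match of length only and names no locus. All 462 RefSeq ribosomal, small nuclear, small nucleolar, transfer or microRNA genes of 1811 bases are ribosomal RNA genes. All 39 of 197 bases are small nuclear RNA genes, as are 26 of 27 of 161 bases. At 98 bases all 24 are small nucleolar RNA genes, and at 156 bases 565 of 570 are ribosomal. Other spans match mixed types. Of 18 genes of 103 bases, 10 are small nuclear and 8 small nucleolar RNA genes. Of 124 genes of 81 bases, 92 are transfer and 31 small nucleolar RNA genes. At 304 bases, the most frequent span of the anther loci, 0 of the 4865 RefSeq genes of these 5 types were found.

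The loci were spread unevenly over the genome. Chromosome 8 held 25 of the 155 (16.1%), beside 9.58% of all 18984 tested genes, and 25 of its 37 listed ENSRNA loci reached the level. On chromosome 4 only 4 of 24 did. Contigs not placed on a chromosome held 17 of the 155 loci (11.0%) on 9 contigs, and with them 18.5% of the reads of the 155. They held 0.769% of all tested genes but 15.2% of all listed ENSRNA loci. Of their 68 listed ENSRNA loci, 17 reached the level. The 5 ENSRNA loci listed on the mitochondrial genome all lay below the level. Of the 12 loci between 1692 and 1811 bases, 9 were on contigs.

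With neighbours taken as loci at most 10 kb apart, 45 of the 155 (29.0%) had another of the 155 next to them, in 20 clusters: 16 of 2 loci, 3 of 3 and 1 of 4. The corresponding share was 57.8% for all 448 listed ENSRNA loci and 43.4% for the other tested genes, which are far more numerous. The comparison changed with the distance. Within 1 kb the shares were 16.8% of the 155, 36.4% of all listed ENSRNA loci and 15.7% of the other tested genes. Within 100 kb they were 49.7, 69.0 and 85.7% in the same order. What set the clusters at 10 kb apart was their strand. All 25 neighbouring pairs lay on the same strand, as did 173 of 174 pairs among all listed ENSRNA loci, against 46.8% of 4798 pairs of other tested genes. In 8 of the 25 pairs the spans agreed within 2 bases, against 9 of the 4798.

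The largest cluster, 4 loci of 90 to 135 bases on the minus strand of chromosome 6, spanned 1363 bases from 92504748 to 92506110. Its first locus, of 119 bases, had 16, 15 and 16 reads in mutant libraries 1, 2 and 3 and 20 in each wild-type library, so the genotypes did not overlap, but the log2 fold change of -0.34 (SE 0.14) was not called (adjusted p = 0.164 by limma). The other 3 loci of the cluster had 23, 9 and 31 reads in all, so members of a cluster on the same strand stood at different levels. On chromosome 10, between 3787535 and 3796744, 3 loci of exactly 304 bases followed each other on the minus strand with 30, 44 and 457 reads. On chromosome 9, loci of 304, 305 and 296 bases between 20238190 and 20240395 had 394, 28 and 983 reads. Neighbours of equal span may be near-identical copies, and how reads that match several copies were counted is not given in the sources used here, so the split of reads between them is uncertain.

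Of the 155 loci, 6 lay within or across another listed gene, 5 of them on its strand. At these, reads of the locus and of the other gene could not be told apart by position alone. The one with most reads, 98 bases on chromosome 1 (1842786 to 1842883), had 57 reads in all, 3.85 ± 0.86 FPKM in the mutant, against 7.35 ± 4.14 in wild type (SD, n = 3 each), and the gene around it 15.5 ± 2.8 and 29.0 ± 7.6 FPKM. Limma called 0 of the 6 changed (6.65% of all tested genes), and limma-voom called 0 (7.39% of all). At 2 of the 6 the unadjusted limma p was under 0.05, a level that 28.5% of all tested genes reached. Both loci of 81 and 87 bases inside 1 gene on chromosome 5 (70604666 to 70608218) had at most 17 reads in all, beside 3523 for that gene.

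Most reads fell on few loci. Over the 6 libraries the 155 loci held 42018 reads, of which a single locus held 30.8%, the first 5 held 43.4%, the first 10 held 54.8% and the first 50 held 87.2%. The 293 loci below the level added 4528 reads, with a median of 4 each. Shares of reads favour long loci, and by mean FPKM, which is per length, 5 of the 10 highest loci were also among the 10 with the most reads.

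The locus with the most reads was ENSRNA049478426, 163 bases on the plus strand of chromosome 9 (128658845 to 128659007). It had 1934, 2184 and 1457 reads in mutant libraries 1, 2 and 3 and 2738, 1365 and 3262 in wild type, which are 675, 763 and 503 FPKM against 972, 497 and 1135. Wild-type libraries 1 and 3 lay above every mutant library and wild-type library 2 below every one. The log2 fold change of the mutant against wild type, here and throughout on log2(FPKM + 1), was -0.36 (SE 0.33; adjusted p = 0.496 by limma). By FPKM it ranked between 93 and 211 among all listed genes, whereas the locus next in mean FPKM among the 155 stood at 61.9 ± 6.1 in the mutant, against 104 ± 33 in wild type (SD, n = 3 each). The share of the 155 loci's reads on ENSRNA049478426 varied little: 32.2, 31.8 and 32.0% in mutant libraries 1, 2 and 3, against 30.4, 26.9 and 31.0% in wild type.

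That next locus, 200 bases on chromosome 1 (18030164 to 18030363), had 202, 242 and 211 reads in mutant libraries and 362, 239 and 483 in wild-type ones. In FPKM, 57.4, 68.9 and 59.4 stood below 105, 70.9 and 137, so the genotypes did not overlap, but the log2 fold change of -0.70 (SE 0.25) was not called (adjusted p = 0.114 by limma). On chromosome 5, 2 loci of 161 and 147 bases between 3203379 and 3204859 were both among the 10 with the most reads. The longer had 96, 128 and 77 reads in mutant libraries and 149, 80 and 310 in wild-type ones, and the shorter 225, 224 and 129 against 260, 122 and 303. Wild-type library 2 was the lowest of its genotype at both, within the mutant range at the longer and below it at the shorter.

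A locus of 144 bases on chromosome 8 (167756874 to 167757017) came nearest to a call among the most read loci that were not called. It had 110, 98 and 88 reads in mutant libraries and 280, 132 and 269 in wild-type ones, or 38.9 ± 4.5 against 91.0 ± 31.8 FPKM (SD, n = 3 each), with no overlap. The log2 fold change was -1.14 (SE 0.28; adjusted p = 0.0509 by limma), and the locus was called with a filter of 10 reads in 3 libraries in place of FPKM (adjusted p = 0.0481) and without wild-type replicate 2 (adjusted p = 0.0199). The 3 loci of 1811 bases among the 10 most read, all on contigs, had between 81 and 291 reads per library, and their log2 fold changes were -0.58, -0.22 and -0.40 (limma adjusted p = 0.203, 0.447 and 0.304). On a per-length scale these were modest, at 2.52 to 9.30 FPKM.

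**Figure D2:**
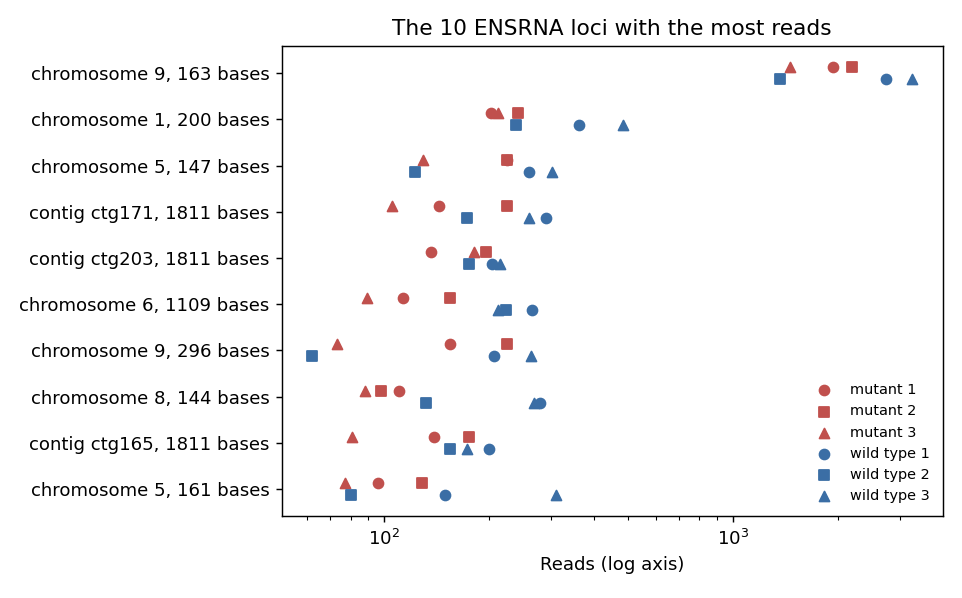
Reads (log axis) in each of the 6 libraries at the 10 ENSRNA loci with the most reads, named by chromosome or contig and span, with mutant libraries in red and wild-type libraries in blue. Wild-type library 2 lies below the other wild-type libraries at most of them, and the chromosome 9 locus of 163 bases stands apart with 1365 to 3262 reads.

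The 10 loci highest by FPKM had spans from 97 to 200 bases. The 52 loci under 120 bases had a median of their mean FPKM of 2.08, against 3.32 for all 155. Low levels were not particular to short loci, since the 21 longest loci had a lower median of 1.68. The span classes in between, of 56 and 26 loci, stood at 4.48 and 4.19. A 193-base locus on chromosome 2 (31647279 to 31647471) stood at 45.1, 29.2 and 41.1 FPKM in the mutant, against 32.7, 24.6 and 33.2 in the wild type (a log2 fold change of 0.33, SE 0.21; adjusted p = 0.340 by limma). A 159-base locus on chromosome 5 (10151382 to 10151540) had 34.3 ± 12.7 and 29.2 ± 12.8 FPKM (SD, n = 3 each; log2 fold change 0.24, SE 0.38; adjusted p = 0.697 by limma), and a 195-base locus on chromosome 1 (14212726 to 14212920) 29.8 ± 9.7 and 46.1 ± 22.9 (log2 fold change -0.55, SE 0.39; adjusted p = 0.377 by limma). These differences were within the spread between replicates.

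Among the 10 loci highest by FPKM, the most uneven was one of 157 bases on contig B73V4_ctg153 (12294 to 12450). It had 13, 83 and 2 reads in mutant libraries and 373, 35 and 30 in wild-type ones, so that wild-type library 1 alone held 373 of its 536 reads. Its log2 fold change of -2.09 had an SE of 1.18 (limma adjusted p = 0.277). A locus of 1692 bases upstream of it on the same strand (9050 to 10741) had 23, 36 and 22 reads in mutant libraries and 41, 27 and 57 in wild-type ones, without such a peak.

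Summed over the 155 loci, RPM (reads scaled to a library total of 1000000 gene reads) was 341, 391 and 256 in mutant libraries 1, 2 and 3 and 521, 301 and 597 in wild-type libraries 1, 2 and 3. The means were 329 ± 68 and 473 ± 154 (SD, n = 3 each), and the genotypes overlapped, with wild-type library 2 between mutant libraries 3 and 1. The difference of the means, -144 RPM, became -230 on leaving out wild-type replicate 2, and -82.0 on leaving out wild-type replicate 3 in its place. Without the chromosome 9 locus the sums were 231, 266 and 174 against 363, 220 and 412. The 10 loci with the most reads held 55.0 ± 1.0% in the mutant, against 54.4 ± 0.7% in wild type, so the total moved between libraries far more than this share did. The first 5 held 44.9 ± 0.9% against 42.2 ± 1.2% (SD, n = 3 each). For that share and for the share of the first locus, every mutant library lay above every wild-type library. These are not separate results, since the first 5 include the first locus. Its share alone differed by 2.61 percentage points, beside 2.65 for the first 5. In these bulk samples fewer cells of a type and less RNA per cell cannot be told apart.

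**Figure D3:**
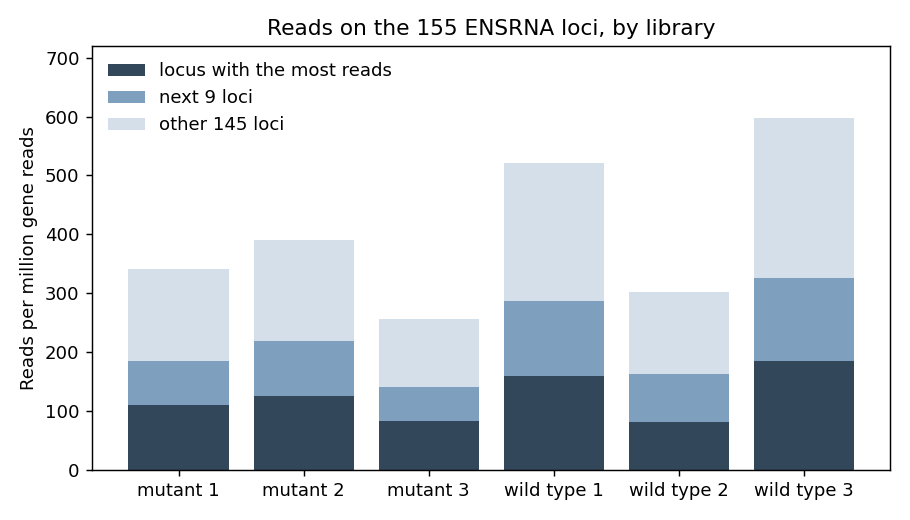
RPM on the 155 ENSRNA loci in each library, stacked as the locus with the most reads, the next 9 and the other 145. The totals run from 256 in mutant library 3 to 597 in wild-type library 3, and wild-type library 2, at 301, lies within the mutant range.

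The libraries of a genotype differed from each other at many ENSRNA loci at once. Wild-type library 2 was the lowest of its genotype at 99 of the 155 loci (63.9%), against 34.7% of the other tested genes, and mutant library 3 was the lowest of its genotype at 84 (54.2%), against 35.7%. At the 84 loci with at least 10 reads in 3 libraries these shares were 79.8% and 71.4%. The median deviation from the mean of its genotype was -0.40 log2 units in wild-type library 2 over the 155 loci and -0.02 over the other tested genes. In mutant library 3 it was -0.16 and 0.01. The median standard deviation within a genotype was 0.55 log2 units for the 155 loci, 0.52 for the 84 with more reads and 0.24 for the other tested genes, which had more reads. Which step made these libraries differ was not tested.

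Genotypes were compared with limma on log2(FPKM + 1) over all 18984 tested genes, with calls made at 0.05 after Benjamini-Hochberg adjustment. Of the 155 ENSRNA loci, 10 were called (6.45%), against 6.65% of all tested genes. Of these, 9 fell (4.75% of all tested genes fell) and 1 rose (1.9% of all rose), so the share called was near the background. The median log2 fold change of the 155 was -0.36, beside -0.20 for all tested genes, and 127 of them (81.9%) were below 0, beside 70.7% of all. All 3 mutant libraries lay below all 3 wild-type libraries at 27 loci (17.4%, beside 28.6% of all tested genes) and above them at 3 (1.94%, beside 7.27%). Genotypes separated at a smaller share of the ENSRNA loci than of all tested genes, while the median shift was larger and the within-genotype spread, given above, wider.

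The number of calls moved with single libraries and with the scaling, among the ENSRNA loci and among all tested genes. Without mutant replicate 1, limma called 0 of the 155 (0.284% of all tested genes), with 32 at an unadjusted p under 0.05 (20.6%, beside 21.2% of all). Without mutant replicate 2 it again called 0 (0.263% of all), with 43 at an unadjusted p under 0.05 (27.7%, beside 18.4% of all). These counts of 0 were near the background of the same settings. Leaving out mutant replicate 3 gave 5 calls (3.23%, beside 4.42% of all). Leaving out wild-type replicate 1 gave 3 (1.94%, beside 2.15% of all). Leaving out wild-type replicate 2, the lowest of its genotype at most ENSRNA loci, gave 11 (7.10%, beside 2.58% of all). Only 5 of these 11 were among the 10 called with all 6 libraries. Leaving out wild-type replicate 3 gave 9 (5.81%, beside 7.23% of all), 8 of them among the 10. Median-of-ratios scaling, which moved the median of all tested genes from -0.20 to 0.00, left 5 calls (3.23%, beside 5.55% of all), with a median of -0.20 for the 155. Limma-voom on the reads called 2 loci (1.29%, beside 7.39% of all), and with median-of-ratios scaling it called 1 (0.645%, beside 5.5% of all). With 10 reads in 3 libraries as the filter, limma called 8 of 105 ENSRNA loci (7.62%, beside 7.13% of all), 5 of them among the 10. Only 5 of the 10 called loci had at least 10 reads in at least 3 libraries.

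**Figure D4:**
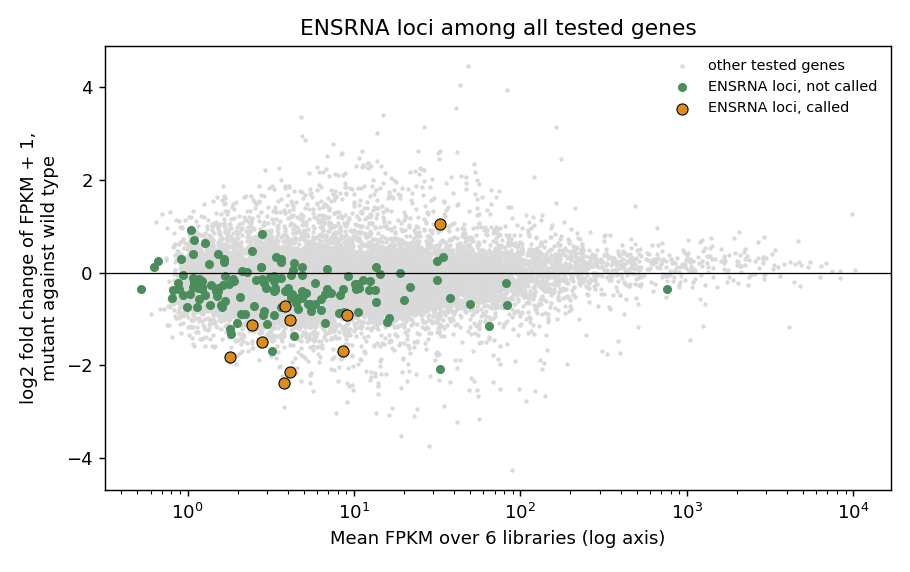
Log2 fold change of FPKM + 1, mutant against wild type, against mean FPKM over the 6 libraries (log axis), for other tested genes (grey), ENSRNA loci not called (green) and the 10 called (orange). Of the called loci, 9 lie below 0 and 1, at a log2 fold change of 1.04, above.

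The locus that rose was ENSRNA049459056, 97 bases on the plus strand of chromosome 5 (195602239 to 195602335). It had 70, 90 and 70 reads in mutant libraries and 42, 36 and 29 in wild-type ones, and every mutant library lay above every wild-type library. Levels were 44.8 ± 6.9 and 21.3 ± 4.1 FPKM (SD, n = 3 each), a log2 fold change of 1.04 (SE 0.20; adjusted p = 0.0292 by limma). The fold change kept its direction in all 15 alternative settings run for it, from 0.89 to 1.33, and the call held in 8, with adjusted p between 0.0253 and 0.126. Leaving out mutant replicate 1 or 2 or wild-type replicate 1 or 2 ended the call (limma adjusted p = 0.0934, 0.126, 0.0512 and 0.0551).

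Among the loci that fell, ENSRNA049478167 on the minus strand of chromosome 6 (13621312 to 13622420, 1109 bases) had the most reads, with 113, 154 and 89 in the mutant, against 265, 223 and 212 in wild type. At this locus wild-type library 2 stood level with the other wild-type libraries, and the genotypes did not overlap. It fell from 12.2 ± 1.5 to 6.07 ± 1.71 FPKM (SD, n = 3 each), a log2 fold change of -0.92 (SE 0.21; adjusted p = 0.0431 by limma). The call held in 5 of 15 alternative settings. Limma-voom called it too (adjusted p = 0.0407), but not after median-of-ratios scaling (0.110), and limma did not after median-of-ratios (0.123) or upper-quartile scaling (0.0840). Without 1 library the adjusted p ran from 0.0431 without wild-type replicate 3 to 0.136 without mutant replicate 1, with the call lost in each of the other 5 cases.

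The largest fall on this scale was at ENSRNA049475492, 197 bases on the minus strand of chromosome 8 (167534097 to 167534293), with 0, 1 and 5 reads in mutant libraries and 33, 12 and 27 in wild-type ones. Its log2 fold change was -2.37 (SE 0.40; adjusted p = 0.0218 by limma), which understates a locus with so few reads. The depth-corrected ratio of wild-type to mutant reads was 12.3 (95% exact interval 5.37 to 34.5, for counting error only). The call held in 9 of 14 alternative settings. Among them were median-of-ratios scaling (limma adjusted p = 0.0227) and limma-voom (adjusted p = 0.0392), but not both together (0.0532). The call ended on leaving out mutant replicate 1 (0.0784), mutant replicate 2 (0.103) or wild-type replicate 1 (0.0549). Over all 14 settings run for it the log2 fold change stayed between -4.08 and -2.10.

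A second locus of 197 bases fell on chromosome 6 (105644993 to 105645189), with 6, 16 and 15 reads in mutant libraries and 66, 29 and 44 in wild-type ones (log2 fold change -1.69, SE 0.35; adjusted p = 0.0348 by limma). A locus of 304 bases on chromosome 8 (173051329 to 173051632) had 13, 18 and 8 reads against 30, 25 and 37 (log2 fold change -1.02, SE 0.24; adjusted p = 0.0443 by limma). The call at the latter held in 1 of 14 alternative settings, and ended without each of the 6 libraries in turn (limma adjusted p = 0.0647 to 0.128). The call at the former ended on leaving out any 1 mutant replicate or wild-type replicate 1 (limma adjusted p = 0.0543 to 0.104).

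The other 5 falls were at loci of 81 to 140 bases whose calls rest on very few reads. On chromosome 6 (21731008 to 21731114) there were 2, 0 and 3 reads in mutant libraries and 11, 7 and 23 in wild-type ones, and on chromosome 3 (212803221 to 212803360) 2, 2 and 3 against 8, 9 and 17. The chromosome 5 locus (49521841 to 49521934) had 1, 3 and 2 against 7, 5 and 6, and a chromosome 8 locus (2554810 to 2554908) 5, 4 and 5 against 10, 7 and 9. At the last of these the ratio of wild-type to mutant reads was 1.90, with a 95% exact interval for counting error (0.956 to 3.93) that includes no difference. The shortest, 81 bases on chromosome 9 (89615050 to 89615130), had 0, 0 and 1 reads against 3, 7 and 4, a ratio of 14.3 (2.18 to 605). It reached the FPKM level only through its wild-type libraries, so its call and ratio are in part fixed by the choice of loci. Their log2 fold changes lay between -2.13 and -0.72, with limma adjusted p between 0.0204 and 0.0486. Without mutant replicate 1 or 2 every one of these calls was lost, and limma-voom called 0 of the 5 (adjusted p = 0.0657 to 0.300).

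**Figure D5:**
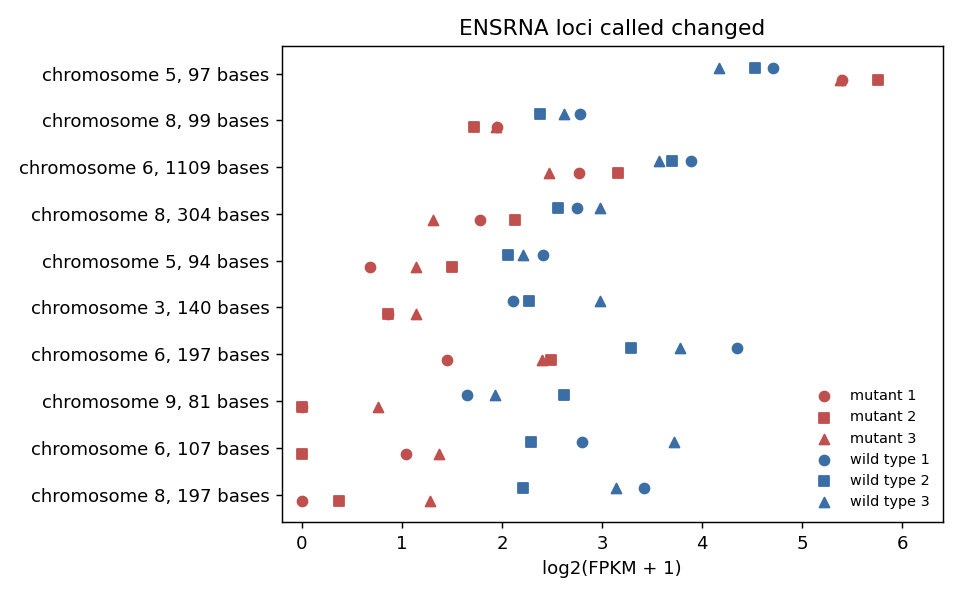
Levels as log2(FPKM + 1) in each library at the 10 called ENSRNA loci, named by chromosome and span, with mutant libraries in red and wild-type libraries in blue. At each locus the genotypes do not overlap, and the mutant lies above wild type only at the 97-base locus on chromosome 5.

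Loci of the same span were also summed within each library, as a description without a test. The 20 loci of 303 to 305 bases stood at 26.3, 23.7 and 16.8 RPM in mutant libraries 1, 2 and 3 and 40.6, 17.3 and 53.8 in wild type. All 20 had a log2 fold change below 0. Limma called 1 of them and limma-voom called 0. Of all tested genes, 70.7% were below 0, limma called 6.65% (4.75% as falls) and limma-voom called 7.39%. The 8 loci of 161 bases had 15.6, 19.7 and 12.3 against 22.6, 14.8 and 35.3, again with all 8 below 0. Limma and limma-voom called 0 of the 8, with 1 at an unadjusted limma p under 0.05, a level that 28.5% of all tested genes reached. The 11 loci of 196 to 198 bases had 7.85, 10.5 and 8.22 against 15.9, 8.13 and 18.8, with 9 below 0. Limma called 2 of the 11 as falls, and limma-voom called 1. In these 3 span classes wild-type library 2 lay within the range of the mutant libraries.

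The 12 loci of 1692 to 1811 bases behaved more evenly across wild-type libraries, at 53.7, 63.9 and 41.8 RPM in the mutant, against 81.3, 62.1 and 80.6 in wild type, or 53.1 ± 11.1 against 74.7 ± 10.9 (SD, n = 3 each). All 12 were below 0, beside 70.7% of all tested genes. Limma and limma-voom called 0 (6.65% and 7.39% of all), with 3 at an unadjusted limma p under 0.05 (28.5% of all). The genotypes overlapped through wild-type library 2 and mutant library 2. At the 4 loci of 156 bases, 3 with few reads had a log2 fold change above 0, while the locus with 327 of their 410 reads stood at -0.60. Their sum was 3.37 ± 0.33 RPM in the mutant, against 4.46 ± 1.74 in wild type (SD, n = 3 each). Both tools called 0 of the 4, and 1 had an unadjusted limma p under 0.05 (28.5% of all tested genes). Spans under 120 bases held 52 of the 155 loci and 5.01% of their reads. Of the 10 limma calls, 5 were among these 52, 4 as falls and 1 as a rise. Limma called 6.65% of all tested genes, 4.75% as falls and 1.9% as rises.

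Loci just inside and just outside the level that defines the set differed little. Ranked by their third-highest FPKM, the 3 lowest of the 155 stood at 1.03, 1.04 and 1.04, and the 3 highest of the loci left out at 0.983, 0.981 and 0.946. Inside, a 1811-base locus on chromosome 6 (14252588 to 14254398) had 15, 14 and 16 reads in mutant libraries and 35, 39 and 33 in wild-type ones. It passed only through its wild-type libraries, so its separation is in part a result of the rule. Its log2 fold change of -0.54 was not called (adjusted p = 0.0519 by limma), but was with a filter of 10 reads in 3 libraries (adjusted p = 0.0329 by limma). On the reads, limma-voom gave -1.25, not called (adjusted p = 0.0580). Outside, another 1811-base locus on chromosome 6 (13566012 to 13567822) had 30, 27 and 5 reads in mutant libraries and 56, 30 and 38 in wild-type ones. At the short end, a 109-base locus on chromosome 2 (131721287 to 131721395) was inside with 6 reads in all, and a 119-base locus on chromosome 5 (78513416 to 78513534) outside with 8.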

How the data were processed

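RNA of mature anthers was sequenced in 3 mutant and 3 wild-type libraries. Per the file headers, each deposited file gives the authors' FPKM per gene, with position, strand and length. HTSeq 0.6.0, HISAT2 2.1.0 and Bowtie2 2.2.3 are named in the submitters' processing notes, without roles, as is the build B73 RefGen_v4. The strand setting and annotation release were not given in the sources used here.

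Spans count both end bases, 1 more than the deposited length. Library totals were solved from the ENSRNA loci, whose values times span are whole multiples of 1 read (largest deviation 7.99e-07 reads), and reads of other genes were recovered by searching the counted length (31465 of 31470 genes solved). Recovered reads made up 99.6% of each total. Intervals cover counting error only. The 18984 genes at FPKM 1 or more in 3 libraries entered limma 3.58.1 (R 4.3.3) as log2(FPKM + 1), with a variance trend, no covariate and two-sided tests adjusted over all of them. The procedure was tested on simulated data. Alternatives were other scalings, a pseudocount of 0.1, other filters, limma-voom, a replicate block, and each library left out.

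The members, lists and named loci (the 10 highest by FPKM and by reads, all called, the extremes of span, the largest cluster, the edges of the level) were chosen with earlier results of these data known; span classes, neighbouring strands, length matches, the contig neighbour, the 156-base class, the clusters on chromosomes 9 and 10 and the overlapping loci were described after seeing the values. The planned lists of small-RNA genes and cell markers had no matching identifiers and were not used. Deviations of same-numbered libraries did not go together (correlations 0.01, -0.38 and -0.33 over 18984 genes).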

Additional observations from a re-analysis of the deposited data

Results flagged for a closer look

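A 197-base ENSRNA locus on chromosome 8 (166735156 to 166735352) lay below the FPKM level and so outside the main comparison. It had 4, 3 and 5 reads in the mutant (12 in all) and 0, 1 and 1 in wild type, with no overlap of the genotypes. Among the 293 loci below the level the mutant lay wholly above wild type at 6 (2.05%, beside 7.27% of the tested genes) and wholly below at 26 (8.87%, beside 28.6%). This locus was picked because, of the 6, it was the only one with at least 10 mutant reads. It was not called by limma with no filter, where all 448 listed ENSRNA loci were tested and the 1 call was at another locus.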

How the results depend on the processing

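Against 10 called ENSRNA loci (6.45%) and 1262 called genes (6.65%), limma called 5 ENSRNA loci after median-of-ratios scaling (3.23%, beside 5.55% of all tested genes). Limma-voom called 2 (1.29%, beside 7.39% of all), and 1 after that scaling (0.645%, beside 5.5% of all). With FPKM of at least 5 in 3 libraries, limma called 3 of 52 ENSRNA loci (5.77%, beside 6.96% of all, 748 genes). With no filter it called 1 of 448 (0.223%, beside 0.928% of all, 292 genes). That call, a 96-base locus with 4 reads, was none of the 10. Leaving out 1 library gave 0 to 11 called ENSRNA loci (0 to 7.10%) and 50 to 1373 called genes (0.263 to 7.23%). The replicate block gave 9 called loci (5.81%), 5 of them among the 10, and 715 called genes (3.77%). Libraries in a block share only a number. Upper-quartile scaling gave 8 of 155 (5.16%, beside 6.06% of all), and so did a pseudocount of 0.1 (5.16%, beside 6.03% of all). A filter of 10 reads in 3 libraries gave 8 of 105 (7.62%, beside 7.13% of all). The median log2 fold change of the loci was below 0 in all settings, from -0.56 to -0.20. The difference in RPM was -144, and as summed FPKM -641. For the share held by the 10 most read loci, the difference of 0.607 percentage points was 2.15 by FPKM, 2.65 for 5 loci and -1.64 without the most read locus, and ran from 0.059 to 1.02 without 1 library. Loci with a neighbour were 16.8% within 1 kb (15.7% of the other tested genes) and 49.7% within 100 kb (85.7%). Of all listed ENSRNA loci, 57.8% had one within 10 kb. Of the loci not called, the log2 fold change of the 147-base chromosome 5 locus turned to 0.032 after median-of-ratios scaling (0.025 by limma-voom), and those of the 1811-base locus on contig B73V4_ctg203 and the 296-base chromosome 9 locus to 0.00043 and 0.077 (0.062 by limma-voom for the latter). Without 1 library these ran from -0.60 to 0.050 at the 147-base locus, -0.76 to 0.27 at the 296-base locus and -0.091 to 0.58 at the 159-base chromosome 5 locus. The cause was not tested. Over all alternatives, the 10 calls kept direction, with 56 calls kept and 82 lost. Low read numbers limit the short loci: 71 of the 155 lacked 10 reads in 3 libraries.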
